A study of Mus musculus with 3 samples.

Results

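The BMP and TGF-beta pathway genes described here are 44 genes picked by name: ligands, receptors, Smads, Id genes, secreted antagonists and latent binding proteins. All 44 were found among the 43280 rows of each count table, and the rule goes by gene name, not by a measured value. RNA came from primary cells of the calvarial mesenchyme of mouse embryos at E15.5, with 1 sequencing library per genotype. The dTF-cKO library was beta-catenin fx/dm with Dermo1-Cre, the cKO library was beta-catenin fx/fx with Dermo1-Cre, and the control library was beta-catenin fx/fx with no Cre named. Floxed beta-catenin was thus shared by all 3, and the dm allele was present in the dTF-cKO alone. The labels do not spell out dm; a mouse Ctnnb1 allele of that name is known to keep the adhesion function of beta-catenin while lacking its transcriptional output. Dermo1-Cre is expressed from the Twist2 locus, which is active in mesenchyme, so other cell types in the dissected tissue are not its intended target. A Cre-free fx/dm library is not among the 3, and whether embryos were pooled is not given in the sources used here. With 1 library per genotype there was no replicate and no test of a genotype: every difference below is between 2 libraries, and its interval covers counting error only.

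Bone morphogenetic proteins (BMPs), growth and differentiation factors (GDFs), activins and TGF-betas are secreted dimers that bring type I and type II receptor kinases together on the cell surface. The activated type I receptor phosphorylates receptor Smads, which join Smad4 and enter the nucleus. Smad1, Smad5 and Smad9 serve BMP receptors, while Smad2 and Smad3 serve TGF-beta and activin receptors. Id genes, Smad6 and Smad7 are among the direct targets, and Smad6 and Smad7 feed back to block the receptors. In the skull these signals govern the growth of the bony fronts and the patency of the sutures, and their reach is set by antagonists such as Noggin and by the storage of latent TGF-beta in the matrix.

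Library totals ran from 2678457 to 3634819 counts. Levels are in CPM, counts brought to a common library size with trimmed-mean (TMM) factors, at which 1 count was worth 0.280 to 0.357 CPM. Ctnnb1, the targeted gene, stood at 442 CPM in the dTF-cKO, 745 CPM in the cKO and 1026 CPM in control. Its ratio to the control was 0.430 in the dTF-cKO (95% interval 0.403 to 0.459) and 0.726 in the cKO (0.688 to 0.766), and under the stroma scaling described below the dTF-cKO value turned to 0.19 higher on the log2 scale. Twist2, the locus of the Cre, had 35 counts in the dTF-cKO, 80 in the cKO and 21 in the control. Of the markers checked, those of mesenchyme were detected in each library, with a summed level of 6991 CPM in the dTF-cKO, 12817 CPM in the cKO and 15244 CPM in control. The 7 osteoblast markers summed to 5599 CPM in the dTF-cKO, 23634 CPM in the cKO and 120876 CPM in control. The 8 epidermal markers summed to 8128 CPM in the dTF-cKO, 18802 CPM in the cKO and 94.8 CPM in control. Endothelial markers summed to 166, 791 and 583 CPM, skeletal muscle markers to 6.79, 166 and 1177 CPM, macrophage markers to 230, 451 and 274 CPM and erythroid markers to 6094, 2077 and 2979 CPM in the same order, and Myog, a muscle marker, was at 0 counts in the dTF-cKO. The libraries also differed in sex-linked RNA, with 2, 0 and 1233 counts of Xist and 444, 362 and 0 counts over 4 Y-linked genes in the dTF-cKO, cKO and control. The part of tissue make-up and of sex in the differences below was not tested, and in bulk RNA fewer cells of a type and less RNA per cell cannot be told apart.

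Because the libraries differed this much, each value was also read under 4 other scalings. The furthest of them takes 38 genes of stroma (meninges, dermis, endothelium and vessel wall) and shifts each comparison until their median is 0; it is named the stroma scaling. Under TMM those 38 genes had a median log2 difference of -1.41 in the dTF-cKO and 0.40 in the cKO, each against the control, and of -1.59 in the dTF-cKO against the cKO. The stroma scaling therefore raises every value of the dTF-cKO against the control by 1.41 on the log2 scale and every value against the cKO by 1.59, and lowers every value of the cKO against the control by 0.40. Its opposite extreme, totals without the most abundant genes, put the median of all measured genes in the dTF-cKO against the control at -0.30, in place of 0.06 under TMM. Shares within a gene family do not depend on the scaling and are given beside the folds. Ranks among all genes were taken under TMM and are not moved by the stroma scaling. They were not computed under the other scalings.

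Most pathway genes in the cKO library were within 2-fold of the control, and the dTF-cKO library departed further. A mean of at least 5 CPM over the libraries was asked of a measured gene, which 42 of the 44 pathway genes met; Gdf5 and Gdf6 did not. In the dTF-cKO, 16 of the 42 were at least 2-fold lower than in control, against 20.9% of the 12127 genes measured, and 3 were at least 2-fold higher, against 19.5%. In the cKO, 3 of the 42 were at least 2-fold lower than in control, against 6.78% of all genes, and 2 were at least 2-fold higher, against 9.66%. Both comparisons use the same control library. Between the Cre-carrying libraries, 13 of the 42 were at least 2-fold lower in the dTF-cKO than in cKO, against 20.5% of all genes, and 2 were at least 2-fold higher, against 14.5%. The median log2 difference of the 42 was -0.53 for the dTF-cKO against the control (0.06 over all measured genes), -0.10 for the cKO against the control (0.06) and -0.42 for the dTF-cKO against the cKO (0.01). Under the stroma scaling, which shifts all genes alike, these 3 medians became 0.87 (1.46 over all measured genes), -0.50 (-0.34) and 1.16 (1.60). The sign of the pathway's median thus turned with the scaling, while its place below the all-gene median was the same under both. By rank under TMM, which the stroma scaling does not move, the median pathway gene had 31.2% of all measured genes below it in the dTF-cKO against the control. The shares were 37.7% in the cKO against the control and 35.3% in the dTF-cKO against the cKO. Among the 42, Bmp5, Chrd, Chrdl1, Bmper, Smad9 and Id4 were under 5 CPM in the dTF-cKO and passed through the other libraries, and Acvr2b was under it in the cKO.

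**Figure D1:**
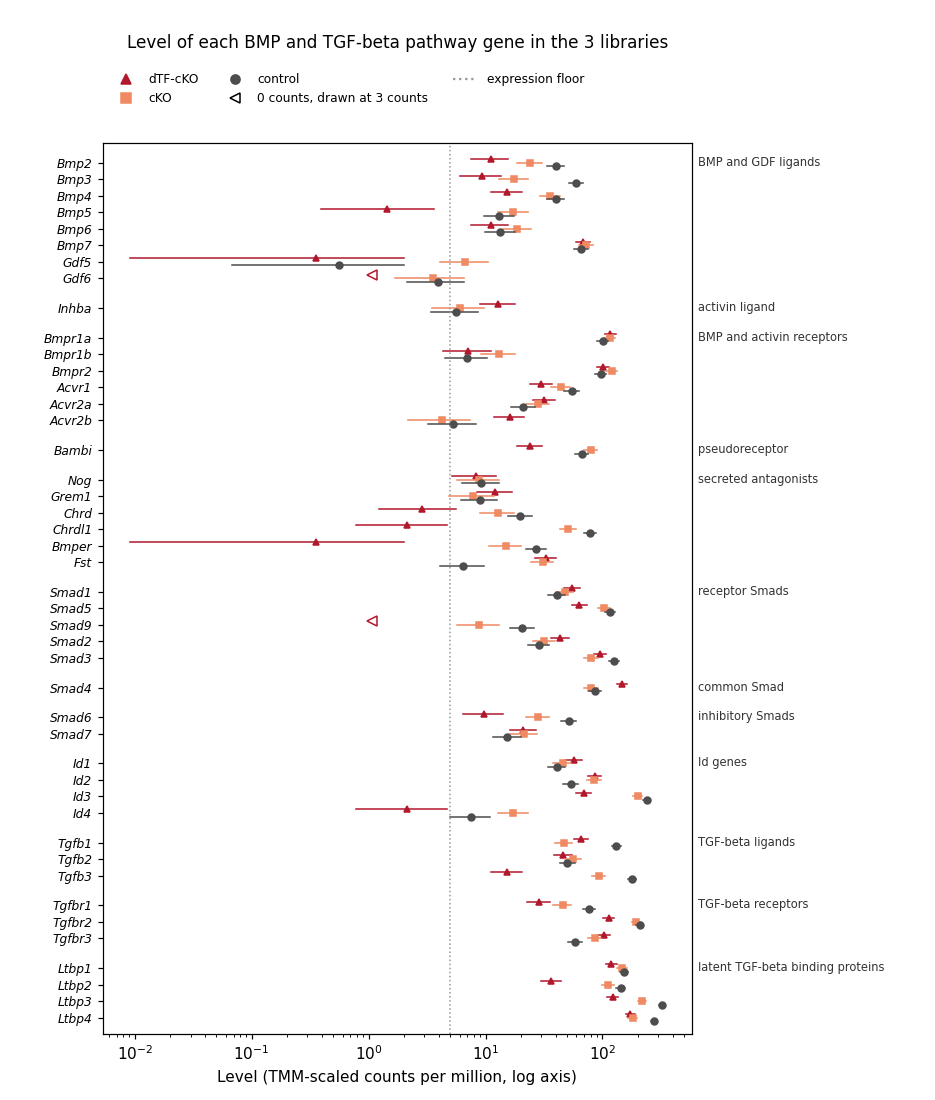
Level of each of the 44 genes (rows, grouped by role) in TMM-scaled CPM on a log axis, with exact Poisson 95% intervals for counting error; triangles, squares and circles are the dTF-cKO, cKO and control libraries, and the dotted line is the 5 CPM floor. Chrdl1, Bmper, Smad9 and Tgfb3 show the dTF-cKO far to the left of the control, whereas Fst shows both Cre-carrying libraries to its right.

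Pathway genes that passed the 2-fold size under all 5 scalings form a short list. How many of all measured genes did so was not counted, so the smallest count under a single scaling stands beside each list. Lower in the dTF-cKO than in control were 7 pathway genes: the ligands Bmp3, Bmp5 and Tgfb3, the antagonists Chrd, Chrdl1 and Bmper, and Smad9. Under the stroma scaling 820 of all 12127 genes were lower. Bmp5, Chrd, Chrdl1, Bmper and Smad9 were under 5 CPM in the dTF-cKO and passed the floor through the other libraries. Higher in the dTF-cKO than in control were 2, Fst and Acvr2b. Totals without the most abundant genes put 1581 of 12161 genes higher there. In the cKO against the control, Bmp3, Smad9 and Tgfb1 were lower and Fst was higher under all 5. Library totals put 700 of 12126 genes lower there, and the stroma scaling put 782 of 12127 higher. In the dTF-cKO against the cKO, Bmp5, Chrdl1, Bmper, Smad9 and Id4 were lower and Acvr2b was higher under all 5. The stroma scaling put 622 of 12127 genes lower there, and totals without the most abundant genes put 1102 of 12161 higher. Each of these pathway genes was under 5 CPM in its low library of the pair and passed the floor through the other libraries. Of the other genes past 2-fold under TMM in the dTF-cKO against the control, Bmp4, Tgfbr1 and Ltbp3 lost their direction under the stroma scaling, with values of 0.07, 0.01 and 0.01.

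**Figure D2:**
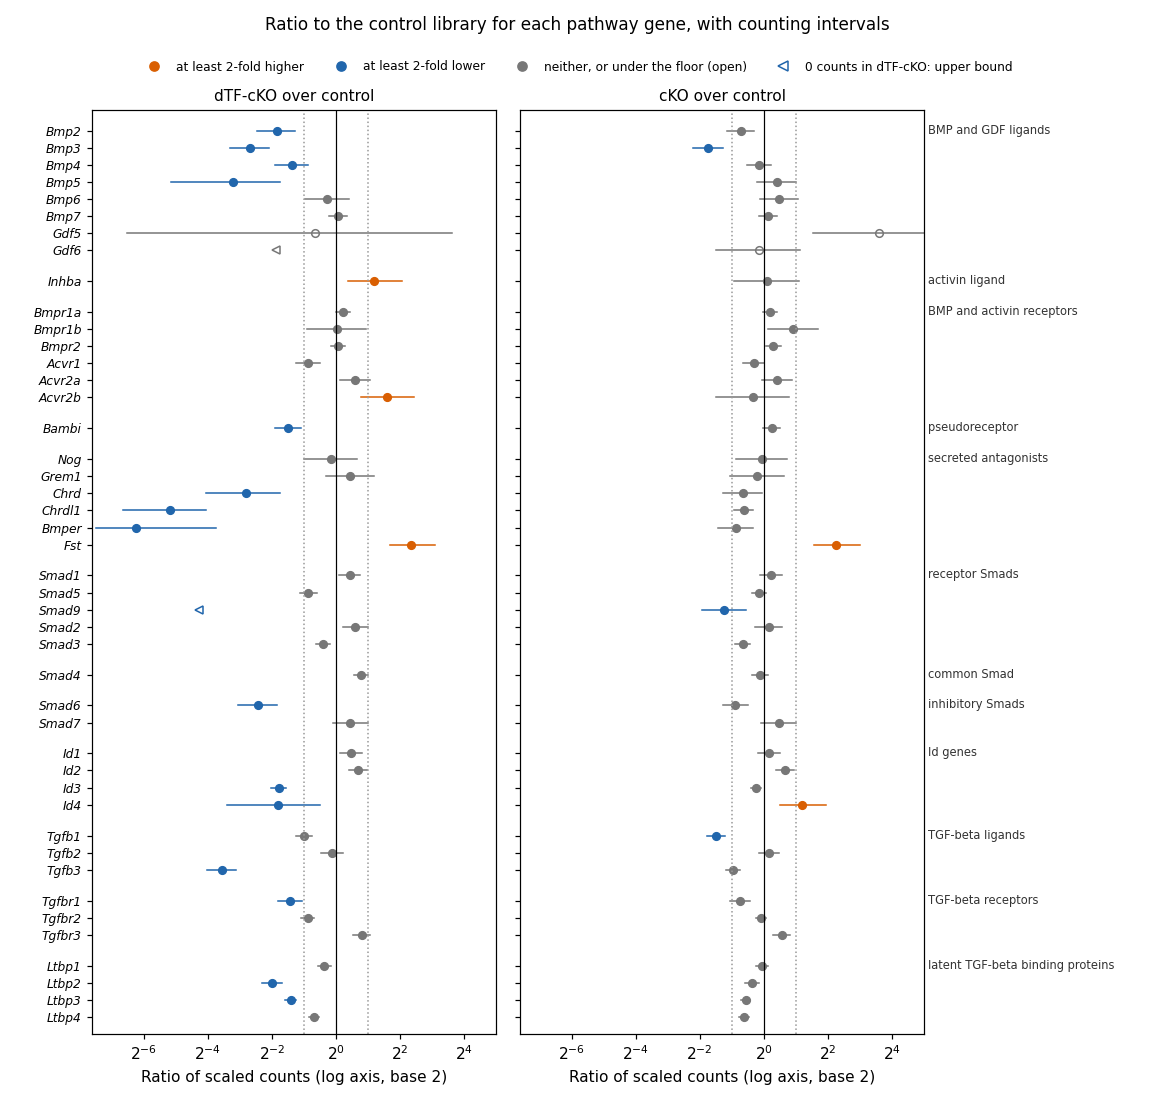
Ratio of scaled counts to the control library for each gene, dTF-cKO in the left panel and cKO in the right, on a base 2 log axis with exact conditional 95% intervals cut at the plot edge; blue and orange mark genes at least 2-fold lower and higher, open circles genes under the floor, and dotted lines 2-fold. The left panel has 16 blue and 3 orange genes and the right panel 3 and 2, and the open left-pointing triangles are bounds for Smad9 and Gdf6, at 0 counts in the dTF-cKO.

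The BMP ligands separated into those that were lower in the dTF-cKO and those that were not. Of the 6 measured, 4 were at least 2-fold lower in the dTF-cKO than in control under TMM, against 20.9% of all genes. Under the stroma scaling 2 were lower and 2 higher, where 820 of all 12127 genes were lower and 7956 higher. Bmp3, a ligand of osteoblasts that opposes other BMPs, had 26 counts in the dTF-cKO, 50 in the cKO and 211 in the control. That was 6.35-fold lower in the dTF-cKO than in control (4.22 to 9.95) and 3.34-fold lower in the cKO (2.44 to 4.64), and the interval of the Cre-carrying pair, 1.16 to 3.19 times lower in the dTF-cKO, also left out 1. Both Cre-carrying libraries were below the control, and osteoblast markers were lower in them too, by the sums given above. Bmp5, a ligand of skeletal condensations, had 4 counts in the dTF-cKO, 49 in the cKO and 47 in the control. It was 9.20-fold lower in the dTF-cKO than in control (3.36 to 35.2) and 12.1-fold lower than in cKO (4.45 to 46.3). The cKO and the control were close, at 17.3 and 13.1 CPM, and the dTF-cKO stood apart at 1.43 CPM. In the annotation 46.7% of the exon bases of Bmp5 lie opposite those of the non-coding gene Gm26903, which had 0 counts in all 3 libraries.

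Bmp2 and Bmp4, ligands that drive osteogenesis, both had their lowest level in the dTF-cKO under TMM. Bmp2 had 31 counts in the dTF-cKO, 68 in the cKO and 142 in the control, 3.59-fold lower in the dTF-cKO than in control (2.42 to 5.47), with a log2 difference of -1.78 that became -0.38 under the stroma scaling. Bmp4 had 43, 101 and 142 counts in the dTF-cKO, cKO and control, 2.59-fold lower in the dTF-cKO than in control (1.83 to 3.73). In the cKO Bmp4 was 1.11 times lower than in control, with an interval (0.855 to 1.45) that held 1. Both ligands had the order dTF-cKO, cKO, control from low to high. Bmp7, a ligand made by epithelia and mesenchyme alike, had 191, 205 and 235 counts, or 68.2 CPM in the dTF-cKO, 72.5 CPM in the cKO and 65.7 CPM in control, and every pairwise interval held 1. Bmp6, a ligand of cartilage and bone, had 31, 53 and 48 counts in the same order. Bmp7 made up 58.4% of all counts of the 8 ligands in the dTF-cKO (exact 95% interval 52.9% to 63.8%), 36.9% in the cKO (32.9% to 41.1%) and 27.9% in the control (24.9% to 31.1%). Bmp3 took 7.95% (5.26% to 11.4%), 9.01% (6.76% to 11.7%) and 25.1% (22.2% to 28.2%) in the same order. Per kilobase of exon, the highest ligand was Bmp7 in the dTF-cKO (17.0 CPM per kilobase, with Bmp4 next at 6.83) and in the cKO (18.0, with Bmp4 at 15.9), and Bmp4 in the control (17.7, with Bmp7 at 16.4).

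The joint-forming ligands were near the detection limit. Gdf5, which marks future joints, had 1 count in the dTF-cKO, 19 in the cKO and 2 in the control. The cKO was the high library, 12.0-fold above the control (2.90 to 106), and chondrocyte markers were higher in the same library, at 2515 CPM in the cKO against 814 CPM in the control; their part was not tested. Gdf6, a ligand of joints and cranial sutures, had 0 counts in the dTF-cKO, which allows up to 1.07 CPM, 10 in the cKO and 14 in the control. Inhba, which encodes the activin A subunit, was under TMM the measured ligand gene among the 44 that was at least 2-fold higher in the dTF-cKO than in control. Under the stroma scaling the measured ligands Bmp6, Bmp7 and Tgfb2 were as well, at 1.14, 1.46 and 1.29 on the log2 scale. Inhba had 36 counts in the dTF-cKO, 17 in the cKO and 20 in the control, 2.30-fold above the control (1.30 to 4.19). Its log2 difference of 1.11 became 2.52 under the stroma scaling and 0.78 under totals without the most abundant genes.

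The secreted antagonists, which bind ligands outside the cell, differed in direction from each other. Of 6 measured, 3 were at least 2-fold lower in the dTF-cKO than in control, against 20.9% of all genes, and 1 was higher, against 19.5%. The stroma scaling gave 3 lower and 3 higher, where 820 of all 12127 genes were lower and 7956 higher. Chrdl1, a chordin-like BMP binder on the X chromosome (143285674 to 143394262, minus strand, mm10), had 6 counts in the dTF-cKO, 144 in the cKO and 280 in the control. It was 36.5-fold lower in the dTF-cKO than in control (16.6 to 100.4), and only 0.726% of all measured genes had a lower difference. The dTF-cKO stood far from both other libraries, and the cKO was 1.54-fold below the control (1.25 to 1.89). Bmper, a BMP-binding endothelial regulator on chromosome 9 (23223076 to 23485200, plus strand), had 1 count in the dTF-cKO, 42 in the cKO and 97 in the control. The ratio was 75.9-fold lower in the dTF-cKO than in control, with a wide interval of 13.3 to 3030.0 from that single count, and 0.759% of measured genes had a lower difference. Endothelial markers were lower in the dTF-cKO too, 6 of 6, by the sums above, and were higher in the cKO, 6 of 6, where Bmper was 1.83-fold lower than in control (1.26 to 2.69). Chrd, which encodes Chordin, had 8, 36 and 71 counts in the dTF-cKO, cKO and control, 6.95-fold lower in the dTF-cKO than in control (3.34 to 16.7).

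Fst was the antagonist with the opposite pattern. It encodes Follistatin, which binds activins and some BMPs, and had 92 counts in the dTF-cKO, 87 in the cKO and 23 in the control. It was 5.11-fold higher in the dTF-cKO than in control (3.21 to 8.46) and 4.78-fold higher in the cKO (2.99 to 7.94), while the Cre-carrying libraries differed by 1.07 times (0.788 to 1.45). Both Cre-carrying libraries were thus high and, under TMM, could not be told apart by counting error. Their log2 difference of 0.09 became 1.68, higher in the dTF-cKO, under the stroma scaling. Epidermal markers were above the control in the same libraries, 8 of 8 in each, though the cKO interval of Epcam (0.754 to 1.73) held 1. They summed to 8128 CPM in the dTF-cKO, 18802 CPM in the cKO and 94.8 CPM in control. Single markers split between the Cre-carrying libraries. Krt5, Krt14, Cdh1 and Epcam stood at 4524, 2068, 894 and 179 CPM in the dTF-cKO, above 2037, 1078, 207 and 16.6 CPM in the cKO. Krt1, Krt10, Lor and Trp63 stood at 36.4, 322, 23.9 and 80.4 CPM, below 5869, 6947, 2550.5 and 97.3 CPM. The part of epidermis in the Fst difference was not tested. Nog, which encodes Noggin, was low and close in all 3, at 8.22 CPM in the dTF-cKO, 8.84 CPM in the cKO and 9.23 CPM in control. Grem1, which encodes Gremlin, had 34, 22 and 32 counts in the same order, and each of its pairwise intervals held 1. As shares of all antagonist counts, Fst took 56.1% in the dTF-cKO (48.1% to 63.8%), 24.4% in the cKO (20.1% to 29.2%) and 4.29% in the control (2.74% to 6.37%). Chrdl1 took 3.66% (1.35% to 7.79%), 40.4% (35.3% to 45.8%) and 52.2% (47.9% to 56.5%) in that order.

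**Figure D3:**
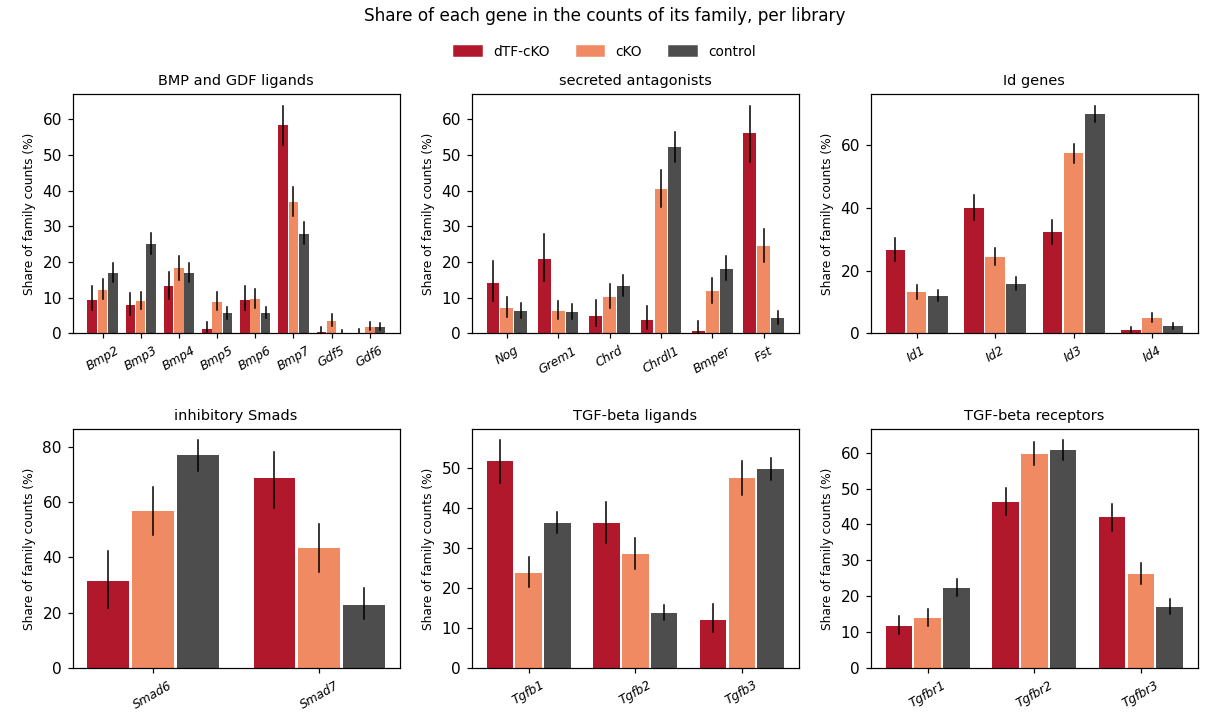
Share of each gene in the summed counts of its family (bars, percent, from 0) with exact binomial 95% intervals, for the dTF-cKO, cKO and control libraries from left to right in each group. Shares of counts do not depend on the scaling: Fst leads the antagonists in the dTF-cKO and Chrdl1 does in the other libraries, Id3 leads the Id genes in the cKO and control but not in the dTF-cKO, and Tgfb3 is the smallest TGF-beta share there.

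Of the 6 BMP and activin receptors, 1 was at least 2-fold higher and 0 were lower in the dTF-cKO under TMM, against the control and against the cKO alike. Over all genes 19.5% were higher and 20.9% lower against the control, and 14.5% and 20.5% against the cKO. In the cKO against the control 0 of the 6 passed that size, where 9.66% of all genes were higher and 6.78% lower. Under the stroma scaling 5 of the 6 were at least 2-fold higher in both dTF-cKO comparisons. That scaling put 7956 of all 12127 genes higher against the control and 8439 against the cKO. Under totals without the most abundant genes 1 receptor was higher and 1 lower in each. Of 12161 genes, 1581 were higher and 3448 lower there against the control, and 1102 and 3317 against the cKO. Bmpr1a, the main type I BMP receptor of mesenchyme, had 117 CPM in the dTF-cKO, 115 CPM in the cKO and 100.4 CPM in control. Bmpr2, the type II BMP receptor, had 102, 120 and 97.1 CPM in that order. Neither receptor left 1 out of its interval in the dTF-cKO against the control, though both would be above it by 1.62 and 1.48 on the log2 scale under the stroma scaling. Acvr2b, a type II receptor for activins and BMPs, had 45 counts in the dTF-cKO, 12 in the cKO and 19 in the control. It was 3.03-fold higher in the dTF-cKO than in control (1.73 to 5.48) and 3.79-fold higher than in cKO (1.97 to 7.87), the widest departure among the receptors. Acvr1, a type I receptor whose activating mutations cause ectopic bone, had 84, 124 and 195 counts in the dTF-cKO, cKO and control, and was 1.82-fold lower in the dTF-cKO than in control (1.40 to 2.38), with a sign that turned under the stroma scaling (0.56). Acvr2a, the other activin type II receptor, had 89, 79 and 75 counts. Bmpr1b, a type I receptor of cartilage condensations, had 20, 37 and 25 counts and stood 1.87-fold higher in the cKO than in control (1.10 to 3.24). Bambi, a kinase-less decoy receptor that is itself a target of BMP and of Wnt signals, had 67 counts in the dTF-cKO, 225 in the cKO and 239 in the control. It was 2.79-fold lower in the dTF-cKO than in control (2.12 to 3.72), while the cKO interval (0.988 to 1.43) held 1. Its log2 difference of -1.46 became -0.05 under the stroma scaling.

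Within each branch of the receptor Smads, some genes were higher and others lower in the dTF-cKO than in control under TMM. Smad9, also called Smad8, had the fewest counts of the receptor Smads in each library. It had 0 counts in the dTF-cKO, 25 in the cKO and 74 in the control. Its plus-strand gene spans 54755582 to 54801257 of chromosome 3. Against a limit of 3 counts in the dTF-cKO library it was at least 19.3-fold lower there than in control (95% lower limit 15.3) and at least 8.25-fold lower than in cKO (6.23). In the cKO it was 2.34-fold lower than in control (1.47 to 3.85). The 3 libraries thus had a clear order, with the dTF-cKO lowest. Smad5, which shares its BMP role, had 178, 294 and 412 counts in the dTF-cKO, cKO and control, 1.81-fold lower in the dTF-cKO than in control (1.52 to 2.17), and 0.56 above it on the log2 scale under the stroma scaling. Smad1, the other BMP Smad, had 154, 134 and 146 counts and was 1.35-fold higher in the dTF-cKO than in control (1.07 to 1.70).

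Smad2, a TGF-beta and activin Smad, had 122 counts in the dTF-cKO, 90 in the cKO and 102 in the control, 1.53-fold higher in the dTF-cKO than in control (1.16 to 2.01). Smad3, its partner, had 269, 226 and 451 counts, and was 1.31-fold lower in the dTF-cKO than in control (1.13 to 1.53) and 1.58-fold lower in the cKO (1.34 to 1.86); the dTF-cKO value turned to 1.02 higher on the log2 scale under the stroma scaling. Smad4, the partner of all receptor Smads, had 413, 226 and 308 counts, or 148 CPM in the dTF-cKO, 79.9 CPM in the cKO and 86.2 CPM in control, 1.71-fold higher in the dTF-cKO than in control (1.47 to 1.99). As shares of receptor Smad counts, Smad5 took 24.6% in the dTF-cKO (21.5% to 27.9%), 38.2% in the cKO (34.8% to 41.8%) and 34.8% in the control (32.1% to 37.6%), and Smad1 took 21.3% (18.4% to 24.5%), 17.4% (14.8% to 20.3%) and 12.3% (upper limit 14.3%). Smad9 made up 0 of the 723 receptor Smad counts in the dTF-cKO, which allows a share of up to 0.415%, 3.25% in the cKO and 6.24% in the control. The inhibitory Smads parted as well. Smad6, which acts mainly on the BMP branch, had 27 counts in the dTF-cKO, 79 in the cKO and 185 in the control, 5.36-fold lower in the dTF-cKO than in control (3.57 to 8.36) and 1.85-fold lower in the cKO (1.42 to 2.44). Smad7, which acts on both branches, had 59, 60 and 55 counts, and each interval held 1. Smad6 made up 31.4% of the pair's counts in the dTF-cKO (21.8% to 42.3%), 56.8% in the cKO (48.2% to 65.2%) and 77.1% in the control (71.2% to 82.2%).

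Id genes encode helix-loop-helix proteins that block the DNA binding of bHLH factors, and they are widely used as a readout of BMP signalling. Their 4 genes differed in direction. Id3 was the most abundant per kilobase in the control, at 133 CPM per kilobase, and had 194 counts in the dTF-cKO, 564 in the cKO and 853 in the control. It was 3.44-fold lower in the dTF-cKO than in control (2.94 to 4.04) and 1.20-fold lower in the cKO (1.07 to 1.33). Id1 had 159, 129 and 146 counts in the dTF-cKO, cKO and control, 1.39-fold higher in the dTF-cKO than in control (1.10 to 1.75). Id2 had 240, 240 and 192 counts, 1.60-fold higher in the dTF-cKO than in control (1.32 to 1.94) and 1.58-fold higher in the cKO (1.30 to 1.92). Id1 and Id2 were thus above the control where Id3 was below it. Id4 had 6 counts in the dTF-cKO, 49 in the cKO and 27 in the control, so that it was 3.52-fold lower in the dTF-cKO than in control (1.42 to 10.4) and 2.30-fold higher in the cKO (1.41 to 3.82). Under the stroma scaling Id1, Id2, Id3 and Id4 were at 1.88, 2.07, -0.37 and -0.15 on the log2 scale in the dTF-cKO against the control. Of these, 0 were at least 2-fold lower and 2 higher, where 820 of all 12127 genes were lower and 7956 higher. Id3 made up 32.4% of Id counts in the dTF-cKO (28.7% to 36.3%), 57.4% in the cKO (54.3% to 60.6%) and 70.0% in the control (67.4% to 72.6%), while Id2 made up 40.1% (36.1% to 44.1%), 24.4% (21.8% to 27.3%) and 15.8% (13.8% to 17.9%). Per kilobase, Id1 was the highest Id gene in the dTF-cKO, at 49.0 CPM per kilobase, with Id3 at 38.7 and Id2 at 35.2.

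Under TMM, 0 of 5 other genes often used as BMP targets were at least 2-fold lower in the cKO than in control. That stands against 6.78% of all genes. In the dTF-cKO 4 of them were, against 20.9%. They were Msx1, Dlx5, Atoh8 and Hey1, named after their values were seen, with log2 differences of -3.37, -2.57, -2.62 and -2.90 that all stayed at least 2-fold lower under the stroma scaling. Msx1 and Dlx5 are homeobox genes of the skull, so they mark skeletal mesenchyme as well as BMP signalling. Msx2, the remaining gene, had 93 counts in the dTF-cKO, 49 in the cKO and 73 in the control. Under the stroma scaling Msx2 was 2.09 above the control in the dTF-cKO on the log2 scale. Mesenchymal markers were below control in the dTF-cKO for 7 of 8 and osteoblast markers for 7 of 7, with the sums given above, and their part in the lower target genes was not tested.

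The 250 bases before the RefSeq start of Id2 and Id3, which parted from each other, and of Smad6 and Smad9, the BMP-branch Smads with the lowest ratios, are shown to set their upstream letters side by side. They come from RefSeq on build GRCm38.p6, whose coordinates are those of mm10, and are written 5' to 3' on the gene's own strand. In GENCODE, where Id2 spans 25093799 to 25097140 and Id3 spans 136143497 to 136145755, the windows of these Id genes lie inside the annotated span, whereas those of Smad6 and Smad9 lie before it. Capitals mark GGCGCC, a GC-rich motif bound by Smad1 and Smad5; CAGACA, a motif of Smad3 and Smad4, and CTTTGAT, a TCF/LEF motif, were searched on both strands too and had no match in these 4.
Id2 promoter, chr12:25096093-25096342, minus strand: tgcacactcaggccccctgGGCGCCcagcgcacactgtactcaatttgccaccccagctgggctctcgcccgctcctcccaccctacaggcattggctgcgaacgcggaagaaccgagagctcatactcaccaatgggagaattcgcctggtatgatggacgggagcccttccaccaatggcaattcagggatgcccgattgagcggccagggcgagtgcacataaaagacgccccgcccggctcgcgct
Id3 promoter, chr4:136143572-136143821, plus strand: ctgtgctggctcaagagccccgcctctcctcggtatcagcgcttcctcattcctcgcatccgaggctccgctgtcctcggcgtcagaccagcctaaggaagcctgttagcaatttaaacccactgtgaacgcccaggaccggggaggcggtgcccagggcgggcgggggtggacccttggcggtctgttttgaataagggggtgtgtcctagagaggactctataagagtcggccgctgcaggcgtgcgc
Smad6 promoter, chr9:64022060-64022309, minus strand: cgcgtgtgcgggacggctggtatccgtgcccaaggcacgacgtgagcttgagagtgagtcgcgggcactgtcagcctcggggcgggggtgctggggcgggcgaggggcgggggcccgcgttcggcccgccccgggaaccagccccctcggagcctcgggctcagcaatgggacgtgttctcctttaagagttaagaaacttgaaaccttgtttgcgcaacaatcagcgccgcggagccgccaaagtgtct
Smad9 promoter, chr3:54755332-54755581, plus strand: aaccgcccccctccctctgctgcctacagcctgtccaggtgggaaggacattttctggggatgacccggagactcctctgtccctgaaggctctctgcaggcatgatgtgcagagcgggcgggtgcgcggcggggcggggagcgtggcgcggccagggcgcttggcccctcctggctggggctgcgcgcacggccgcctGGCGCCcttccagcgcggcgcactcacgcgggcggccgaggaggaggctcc
The motif GGCGCC stands 231 bases before the start of Id2 and 51 bases before that of Smad9, and is not in these windows of Id3 and Smad6. Of the 29 pathway genes with a promoter entry, 8 held GGCGCC (27.6%), against 9.54% of all 27025 genes with an entry. Of the 11 with an entry that were at least 2-fold lower in the dTF-cKO than in control, 4 held it (36.4%): Chrd, Id4, Smad9 and Tgfbr1. The bases checked after the RefSeq start of Id4, and of Ltbp1 among the 29, were not found in their GENCODE transcripts. GGCGCC holds only G and C, and these shares were not matched for base composition. Among the 29, 3 held CAGACA (10.3%, against 17.1%) and 0 held CTTTGAT (against 3.23%). A match of letters is not a bound site, and these windows leave out any element further away.

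TGF-beta ligands also differed from each other. Tgfb3, on the minus strand of chromosome 12 (86056745 to 86079041), was the most abundant of them per kilobase in the control and had 43 counts in the dTF-cKO, 263 in the cKO and 645 in the control. It was 11.7-fold lower in the dTF-cKO than in control (8.62 to 16.4), 1.94-fold lower in the cKO (1.68 to 2.25) and 6.06-fold lower in the dTF-cKO than in cKO (4.37 to 8.57). The order of the libraries was the same as for Smad9 and Smad6, with the dTF-cKO lowest and the control highest. Tgfb1 had another order, with 184 counts in the dTF-cKO, 132 in the cKO and 470 in the control. It was 2.82-fold lower in the cKO than in control (2.32 to 3.44) and 1.68 to 2.38 times lower by its interval in the dTF-cKO, a log2 difference of -0.99 that fell just short of the 2-fold size and became 0.41 under the stroma scaling. Tgfb1 is made by bone cells and by blood-derived cells, among them osteoclasts and platelets. Tgfb2, the form prominent in developing skull and sutures, had 129, 158 and 179 counts in the dTF-cKO, cKO and control, and each pairwise interval held 1. Its log2 difference of -0.12 in the dTF-cKO against the control became 1.29 under the stroma scaling. As shares of TGF-beta ligand counts, Tgfb3 made up 12.1% in the dTF-cKO (8.88% to 15.9%), 47.6% in the cKO (43.3% to 51.8%) and 49.8% in the control (47.1% to 52.6%). Tgfb1 made up 51.7% (46.4% to 57.0%), 23.9% (20.4% to 27.6%) and 36.3% (33.7% to 39.0%).

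Of the 3 TGF-beta receptors, 1 was at least 2-fold lower in the dTF-cKO than in control under TMM, against 20.9% of all genes. Under the stroma scaling 0 were lower and 1 was higher, where 820 of all 12127 genes were lower and 7956 higher. Tgfbr1, the type I receptor kinase, had 80 counts in the dTF-cKO, 129 in the cKO and 273 in the control, 2.67-fold lower in the dTF-cKO than in control (2.08 to 3.47) and 1.67-fold lower in the cKO (1.35 to 2.08); the dTF-cKO value turned to 0.01 under the stroma scaling. Tgfbr2, the ligand-binding type II receptor, had 317, 552 and 745 counts, 1.84-fold lower in the dTF-cKO than in control (1.61 to 2.10). Tgfbr3, the co-receptor betaglycan, had 287, 243 and 209 counts and was higher in both Cre-carrying libraries, 1.75-fold in the dTF-cKO (1.46 to 2.11) and 1.47-fold in the cKO (1.22 to 1.78). Tgfbr3 made up 42.0% of TGF-beta receptor counts in the dTF-cKO (38.2% to 45.8%), 26.3% in the cKO (23.5% to 29.3%) and 17.0% in the control (15.0% to 19.3%).

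Latent TGF-beta binding proteins hold the inactive ligand in the matrix, and all 4 had their lowest level in the dTF-cKO and their highest in the control under TMM. Ltbp2, an elastic fibre protein that does not bind latent TGF-beta, had 102 counts in the dTF-cKO, 316 in the cKO and 515 in the control, 3.95-fold lower in the dTF-cKO than in control (3.19 to 4.94). Ltbp3, a binding protein with a role in bone, had 343, 618 and 1160 counts, 2.65-fold lower in the dTF-cKO than in control (2.35 to 2.995). Ltbp4 had 486, 513 and 992 counts and was 1.60-fold lower in the dTF-cKO (1.43 to 1.78) and 1.53-fold lower in the cKO (1.37 to 1.70) than in control. Ltbp1 had 334, 418 and 548 counts, and its cKO interval held 1. Under the stroma scaling Ltbp2 alone remained below the control in the dTF-cKO, at -0.56 on the log2 scale, and Ltbp1, Ltbp3 and Ltbp4 were at 1.05, 0.01 and 0.73. Among 9 measured genes of TGF-beta storage and activation 5 were at least 2-fold lower in the dTF-cKO than in control, against 20.9% of all genes, and 1 was higher, against 19.5%. The stroma scaling gave 4 lower and 3 higher, where 820 of all 12127 genes were lower and 7956 higher.

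**Figure D4:**
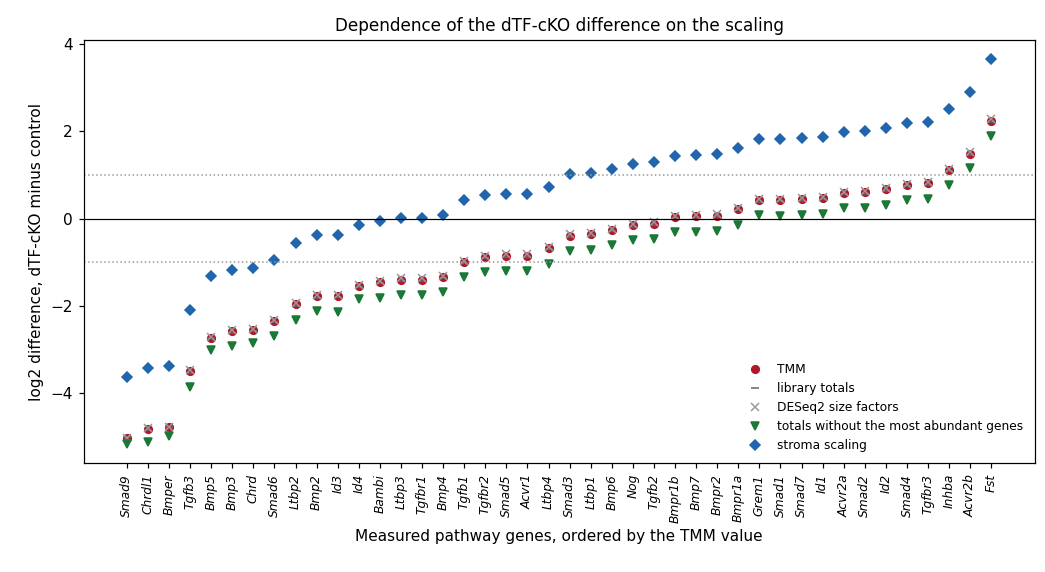
log2 difference of each of the 42 measured genes, dTF-cKO minus control, under 5 scalings; genes run along the horizontal axis by their TMM value, and dotted lines mark 2-fold. Diamonds (stroma scaling) lie 1.41 above circles (TMM) throughout, so genes such as Bmp4, Tgfbr1 and Ltbp3 cross 0, while Smad9, Chrdl1, Bmper, Tgfb3, Bmp5, Bmp3 and Chrd stay at least 2-fold lower.

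The wider pathway was read from 79 further genes, of which 56 were measured. In the dTF-cKO against the control 19 of the 56 had levels at least 2-fold lower, against 20.9% of all genes, and 9 had higher ones, against 19.5% (median log2 difference -0.44). The stroma scaling turned that balance, with 12 lower and 27 higher of the 56 and a median of 0.97, where 820 of all 12127 genes were lower and 7956 higher. In the cKO against the control 2 were lower, against 6.78%, and 4 higher, against 9.66% (median -0.07). The stroma scaling gave 9 lower and 2 higher there (median -0.47), where 1552 of all 12127 genes were lower and 782 higher. In the dTF-cKO against the cKO 18 were lower, against 20.5%, and 8 higher, against 14.5% (median -0.29). The stroma scaling gave 7 lower and 31 higher there (median 1.30), where 622 of all 12127 genes were lower and 8439 higher. The lowest log2 difference of the dTF-cKO against the control, -4.99, belonged to Emilin1, a matrix protein that restrains TGF-beta processing, with 58 counts in the dTF-cKO, 1136 in the cKO and 2431 in the control (32.8-fold lower, 25.3 to 43.3). Gdf11, a TGF-beta family ligand of axial patterning, had 2, 52 and 104 counts in the dTF-cKO, cKO and control, 40.7-fold lower in the dTF-cKO than in control (10.99 to 341). Hfe2, the BMP co-receptor hemojuvelin of muscle and liver, had 0, 9 and 50 counts, at least 13.0-fold lower in the dTF-cKO than in control against 3 counts, and skeletal muscle markers were lower in the same libraries. Gdf10, a ligand also called BMP3B, had 15, 306 and 432 counts, 20.2-fold lower in the dTF-cKO than in cKO (12.1 to 36.5). Tll1, a Tolloid protease that cleaves Chordin, had 0, 34 and 28 counts, at least 11.2-fold lower in the dTF-cKO than in cKO. Nrros, which holds latent TGF-beta on macrophages and microglia, had 5, 114 and 98 counts, 22.6-fold lower in the dTF-cKO than in cKO (9.40 to 70.8). All 6 were lowest in the dTF-cKO, and Emilin1, Gdf11 and Hfe2 had intervals below 1 in the cKO against the control as well. All 6 stayed at least 2-fold lower under the stroma scaling in the comparison given. They were picked for the widest log2 differences, and the stroma scaling shifts all genes alike, so this was fixed by the choice. Macrophage markers did not share a direction in the dTF-cKO against the control. Csf1r was 4.23-fold lower (3.27 to 5.55) and C1qa 2.23-fold lower (1.47 to 3.44). The intervals of C1qb, Lyz2 and Mrc1 held 1, and Cd68 was 3.56-fold higher (2.75 to 4.63). The part of macrophages in the low Nrros count was not tested.

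Itgb6, Acvr1b and Sostdc1 were at least 2-fold higher in a Cre-carrying library against the control. Itgb6, the epithelial integrin chain that activates TGF-beta, had 121 counts in the dTF-cKO, 14 in the cKO and 2 in the control. It was 77.3-fold higher in the dTF-cKO than in control (20.9 to 645) and 8.85-fold higher in the cKO (2.03 to 80.3). Acvr1b, the type I activin receptor ALK4, had 513, 213 and 68 counts, 9.64-fold higher in the dTF-cKO than in control (7.47 to 12.6) and 3.96-fold higher in the cKO (3.002 to 5.28). Sostdc1, a BMP and Wnt antagonist of skin and tooth epithelium, stood 2.65-fold higher in the cKO than in control (1.81 to 3.92), with 88 against 42 counts and a log2 difference of 0.96 under the stroma scaling, and had 5 counts in the dTF-cKO. Epidermal markers were above the control in both Cre-carrying libraries by the sums given above. Between those libraries single markers split in direction, as given with Fst, and their part in these values was not tested. Among 6 genes often used as TGF-beta targets 0 were at least 2-fold lower and 1 higher in the dTF-cKO than in control under TMM, against 20.9% and 19.5% of all genes. Under the stroma scaling 5 were higher, where 7956 of all 12127 genes were higher. The gene past that size under TMM, named after its value was seen, was Cdkn1a, a cell cycle inhibitor that p53 also induces, with 2365 counts in the dTF-cKO, 475 in the cKO and 336 in the control.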

How the data were processed

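Polyadenylated RNA of 3 libraries, 1 per genotype, was measured by RNA sequencing with a Qiagen RNeasy extraction and an Ion Total RNA-Seq kit, per the labels' protocols. The deposited values are raw read counts per gene symbol, with no normalisation, per the file headers (Gene and Count). Reads were placed on mm10 per the submitters' processing notes; for the aligner, counter, annotation and strand, nothing is given in the sources used here. Without strand, reads of 13 pathway genes whose exons overlap a gene on the opposite strand cannot be told apart from that gene's. All 44 symbols matched GENCODE vM21, used for positions and merged exon lengths. TMM factors from edgeR 4.0.16 (R 4.3.3) scaled the counts, and log2 differences used a prior count of 2. Folds are ratios of scaled counts without it, with exact conditional (Clopper-Pearson) 95% intervals; shares have exact binomial intervals. No molecular identifiers are named, so PCR copies may count as separate molecules, and intervals and the limit of 3 counts for a count of 0 cover counting error only. No p-value was computed, since groups have 1 library. Alternatives were library totals, DESeq2 1.42.0 size factors, totals less each library's 20 most abundant genes, the stroma scaling, prior counts of 0.5 and 10, other floors and sizes, and intervals leaving out 1. Calls and intervals were tested on simulated data. Pathway genes, lists and alternatives were chosen with earlier results of these data known. All 44 genes are named; of the further list, up to 4 measured genes per comparison with the widest log2 difference past 2-fold and an interval leaving out 1, with Ctnnb1 and Twist2.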

Additional observations from a re-analysis of the deposited data

How the results depend on the processing

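No paired analysis was possible because each genotype had 1 library. With 1 library per group no library could be left out. DESeq2 size factors, a prior count of 0.5, no expression floor and the demand for a counting interval that leaves out 1 kept every count of pathway genes within 1.5 times its value. Apart from the stroma scaling, the settings gave medians of -0.50 to -0.89 for the dTF-cKO against the control, -0.16 to 0.00090 for the cKO against the control and -0.29 to -0.72 for the dTF-cKO against the cKO. The stroma scaling moved all of them. It put 21 pathway genes 2-fold or more above and 7 below in the dTF-cKO than in control (median 0.87), 1 higher and 12 lower in the cKO than in control (median -0.50), and 22 higher and 5 lower in the dTF-cKO than in cKO (median 1.16). Of all 12127 genes it put 7956 higher and 820 lower, 782 higher and 1552 lower, and 8439 higher and 622 lower, in the same order. It also turned Bmp4 (0.0725), Tgfbr1 (0.0089) and Ltbp3 (0.0064) in the dTF-cKO against the control, and Bmp2 (0.51), Bmp4 (0.40), Smad6 (0.11) and Id3 (0.0707) in the dTF-cKO against the cKO; the cause lies in its construction, which shifts every gene of a comparison by the same amount. In the dTF-cKO against the cKO, library totals and totals without the most abundant genes each left 1 higher gene in place of 2. Over all genes 1427 of 12126 and 1102 of 12161 were higher there. Totals without the most abundant genes put 21 pathway genes lower in the dTF-cKO than in control and 18 lower than in cKO. Of all 12161 genes they put 3448 and 3317 lower. A prior count of 10 left 1 higher gene in the cKO against the control and 1 in the dTF-cKO against the cKO. Of all 12127 genes it left 939 and 1498 higher. A floor of 20 CPM, which keeps fewer genes, left 1 higher gene in each of the comparisons with the control, and 0 higher and 8 lower in the dTF-cKO against the cKO. A size of 1.5-fold gave 4 higher and 12 lower in the cKO and 8 higher and 21 lower in the dTF-cKO, each against the control. In the dTF-cKO against the cKO it gave 4 higher and 20 lower. Of all 12127 genes 2195 were higher and 1602 lower, 3791 higher and 3583 lower, and 3237 higher and 3691 lower, in the same order. A size of 3-fold gave 1 higher and 1 lower in the cKO and 1 higher and 11 lower in the dTF-cKO, each against the control. In the dTF-cKO against the cKO it gave 1 higher and 9 lower. Of all 12127 genes 692 were higher and 382 lower, 1255 higher and 1586 lower, and 710 higher and 1516 lower, in the same order. Levels under about 5 CPM rest on fewer than 20 counts. Gdf5, Gdf6, Bmper, Chrdl1, Chrd, Bmp5, Id4, Smad9 and Acvr2b are thus known only to wide intervals or bounds in the libraries where they are low.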
